A study of Glycine max with 8 samples.

Results

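Stretches of soybean chromatin that were open in leaf, flower, seed and root alike are described here across 8 libraries of MNase hypersensitive sites. The regions were chosen by the presence of sites: the sites of the 2 libraries of a tissue were intersected, intersections of at least 20 bp were kept as that tissue's reproducible regions, the reproducible regions of the 4 tissues were merged, and merged regions that held a reproducible region of every tissue were retained. This gave 1050 of 82398 merged regions (1.27%). A further 18598 merged regions were reproducible in leaf, flower and seed but not in root, and they serve as the set most like the 1050. Root regions outside the 1050 came to 811 that were shared with 1 or 2 other tissues and 1895 that were found in root alone.

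Micrococcal nuclease (MNase) cuts DNA that is not wrapped in a nucleosome or covered by other proteins. Under light digestion, short fragments are released mostly from accessible stretches such as promoters, enhancers and other regulatory elements, so clusters of such fragments mark open chromatin. Some elements are accessible in nearly all tissues of a plant, as at genes that every cell uses, while others open only in some tissues. Repeated sequence, which is common around plant centromeres, is harder to map with short fragments than the chromosome arms.

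All libraries came from the cultivar Williams 82 with no genotype difference or treatment between groups. Trifoliate leaves and roots were taken from V2 seedlings and seeds from R4 plants, all raised in a greenhouse whose days had 12 h light (28 °C) and whose nights were at 25 °C, while flowers were taken from R1 plants in a field. The records of the other tissues place the seeds at R1. For flower, the growing place cannot be told apart from the tissue, and for every organ the sample is a mixture of its cell types. Each tissue has 2 libraries, and nothing in the labels says whether they came from separate plants. Nuclei fixed with formaldehyde were digested with 0.01, 0.03 or 0.1 unit of MNase, and DNA below 100 bp was sequenced. Leaf libraries started from 0.5 g of powder and those of flower, seed and root from 1 g. For leaf, this amount cannot be told apart from the tissue.

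The root lists stand apart from the rest. Root 1 held 15185 sites and root 2 held 18957, whereas the 6 other lists held 50078 to 82798. The root lists have no score column and their shortest site is 49 bp, whereas the other lists start at 100 bp. Every list gives positions alone or positions and a score, so read depth is unknown. Positions are printed counted from 1, with 1 added to the starts in the files, and the genome build is not stated in the labels or files. No sequence or gene name was assigned to a region, so the tissue labels could not be checked against marker genes.

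Root was the tissue that limited the set. Of the 19648 merged regions reproducible in leaf, flower and seed, 5.34% (95% Wilson interval 5.04 to 5.67%) were reproducible in root too, whereas 28.0% of the 3756 merged regions with a root region were among the 1050. Root gave the shortest of the 4 reproducible regions in 798 of the 1050, flower in 170, seed in 63 and leaf in 19. Of the 18598 regions without a reproducible root region, 1703 met a site of root 1 only, 2193 met a site of root 2 only, 292 met sites of both and 14410 met none. With the sites of root 2 alone standing for root, 3539 regions would have entered, and with those of root 1 alone 3042. The share of 5.34% also depended on the lists. It was 23.7% when every list was cut to 15185 sites, 11.01% when the scored lists were limited to sites at or above their median score, and 2.31% with sites of at least 100 bp. The cut to 15185 kept the best-scoring sites of leaf, flower and seed and the widest of root, so it selects by score as well as by length of list. Intervals here and below cover counting error only.

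At the 20 bp limit, chr5:4689824-4690053 and chr12:5571119-5571377 entered on a root intersection of 20 bp, and chr6:13790067-13790364 on a flower intersection of that length. Just outside it, chr3:37389213-37389882, chr4:2883934-2884214 and chr5:25790170-25790378 had root intersections of 19 bp. In all, 41 regions of leaf, flower and seed were kept out by a root intersection of 1 to 19 bp.

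The widest region of the set lay on chromosome 15 and had almost the same borders in every library. At chr15:19588801-19592289 the site was 3471 and 3473 bp wide for leaf, 3464 and 3466 bp for flower, 3490 and 3496 bp for seed, and 3479 and 3481 bp for root. A stretch of 3461 bp was common to all 8 sites. The next widest, chr15:19586846-19588510, had widths of 1671 and 1652 bp for leaf, 1639 and 1636 bp for flower, 1660 and 1658 bp for seed, and 1651 and 1662 bp for root. In both regions the root widths lay among those of the other tissues, although the root lists as a whole hold much narrower sites.

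A pair of wide regions on other chromosomes had the same form. At chr19:5356265-5357518 the widths were 1256 and 1260 bp for leaf, 1222 and 1250 bp for flower, 1245 and 1244 bp for seed, and 1232 and 1241 bp for root. The region chr17:23596295-23597422 had widths of 1122 and 1118 bp for leaf, 1127 and 1128 bp for flower, 1122 and 1099 bp for seed, and 1105 and 1114 bp for root. In neither did a tissue lie above or below all the others by more than a few bp.

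In other regions among the 10 widest, the widest site differed between tissues. At chr12:39187422-39188569 the widest sites measured 946 and 1147 bp for leaf, 199 and 194 bp for flower, 1151 and 1159 bp for seed, and 259 and 430 bp for root. The widest sites of leaf and seed thus lay above those of flower and root with no overlap. However, the region was split into 3 and 4 sites for flower and 4 and 4 for root. Leaf had 2 and 1 sites there and seed 1 and 1. The nearby chr12:39191632-39192762 had 1148 and 628 bp for leaf, 292 and 416 bp for flower, 1129 and 1123 bp for seed, and 202 and 249 bp for root. The third wide region of that stretch, chr12:39189923-39190885, had 912 and 898 bp for leaf, 358 and 368 bp for flower, 950 and 644 bp for seed, and 330 and 283 bp for root. The same order of leaf and seed above flower and root held in both, again for the widest site only. The region chr12:39191632-39192762 held 1 and 2 sites for leaf, 3 and 3 for flower, 1 and 1 for seed, and 2 and 2 for root. At chr12:39189923-39190885 there were 1 and 1 for leaf, 1 and 2 for flower, 1 and 2 for seed, and 2 and 2 for root.

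On chromosome 15, chr15:17745334-17746481 had its widest sites in flower, with 1022 and 1423 bp, against 256 and 221 bp for leaf, 509 and 390 bp for seed, and 152 and 138 bp for root. Each flower library had 1 site there, whereas leaf had 2 and 3, seed 2 and 2, and root 2 and 4. The region chr2:19921979-19923093 was wide in both root libraries, at 1118 and 1095 bp, but the leaf libraries disagreed at 392 and 1105 bp, and flower had 262 and 566 bp and seed 674 and 538 bp. Each root library had 1 site there, against 2 and 1 for leaf, 3 and 2 for flower, and 2 and 1 for seed. At chr7:8569244-8570202 the widths were 750 and 694 bp for leaf, 685 and 483 bp for flower, 710 and 352 bp for seed, and 219 and 211 bp for root. Root was the narrowest tissue there, and every library had several sites inside the region.

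At the other end of the scale, the narrowest merged regions were 122 bp (chr6:25333560-25333681), 125 bp (chr3:13503867-13503991) and 128 bp (chr18:32369644-32369771). The first had sites of 127 and 131 bp for leaf, 106 and 108 bp for flower, 126 and 117 bp for seed, and 94 and 109 bp for root. The third region had 127 and 144 bp for leaf, 114 and 102 bp for flower, 122 and 119 bp for seed, and 138 and 126 bp for root. Root sites were as wide as the others in this region, whereas at chr3:13503867-13503991 they measured 59 and 89 bp and were the narrowest of the 8, the others spanning 103 to 153 bp.

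Over the whole set, sites were wider than is usual for their list. Median merged width was 316.5 bp (95% interval of the median 309 to 330 bp) for the 1050 regions and 285 bp (283 to 287 bp) for those that lacked root. Merging 4 tissues in place of 3 can only widen a region, and wide sites meet others more readily, so these widths are a description. Library by library, the median of the widest site was 308 bp in the 1050 regions against 201 bp over the list in leaf 1, 307.5 against 190 bp for leaf 2, 252 against 167 bp for flower 1, 254.5 against 172 bp for flower 2, 302.5 against 183 bp for seed 1, and 243 against 164 bp for seed 2. For root the medians were 123.5 against 69 bp for root 1 and 119.5 against 67 bp for root 2. The gap between the set and the list was present in all 8 libraries.

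As tissue means, the median width in the 1050 regions was 307.75 ± 0.354 bp for leaf, 253.25 ± 1.77 bp for flower, 272.75 ± 42.1 bp for seed and 121.5 ± 2.83 bp for root (SD, n = 2 each). The seed libraries differed from each other by more than seed differed from leaf or flower in these means, while both root libraries lay below all others. The same libraries had medians of 285 and 270 bp for leaf, 207 and 232 bp for flower, and 266 and 204 bp for seed at the regions without root, so in each of these 6 lists the site was also wider in the 1050 regions than in that set.

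**Figure D1:**
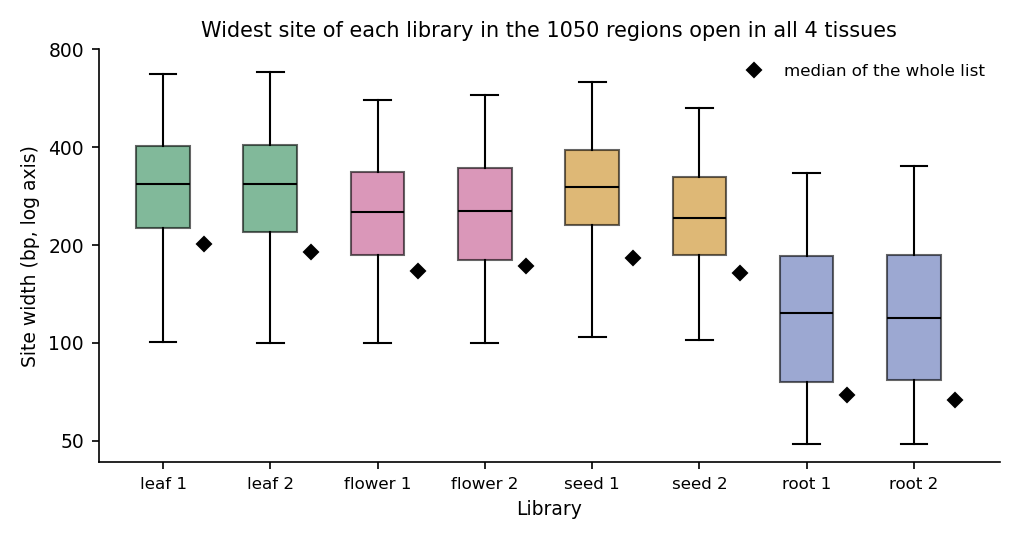
Widest site of each library in the 1050 regions open in all 4 tissues, in bp on a log axis. Boxes give the quartiles, the line the median and the whiskers the range within 1.5 times the interquartile range. Diamonds give the median of the whole list. In every library the diamond lies below the median of the 1050 regions, and the root libraries (123.5 and 119.5 bp) lie below the other 6 (243 to 308 bp).

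In most regions the sites of all libraries had ground in common. The choice of regions did not require this across tissues but favoured it. The 2 libraries of each tissue had to overlap, and tissues were joined where their regions overlapped. The shares below have no background beside them and are a description. A stretch of at least 20 bp was shared by all 8 libraries in 948 regions (90.3%, 95% Wilson interval 88.3 to 91.9%), with a median common stretch of 69 bp over all 1050. No base was common to all 8 in 72 regions (6.86%). Each library had exactly 1 site in 705 regions (67.1%), and 16 regions shared a site with the next region of the set in at least 1 library.

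The scores, which are the authors' own values per site and are deposited without a definition, were not used to choose the regions. They were turned into percentiles within their own list, since the scale differs between lists. The median percentile of the highest-scoring site was 94.6 in the 1050 regions and 80.3 in the regions without root in leaf 1, 94.5 and 79.0 for leaf 2, 90.9 and 65.8 for flower 1, 90.1 and 74.0 for flower 2, 96.3 and 78.9 for seed 1, and 90.5 and 65.9 for seed 2. The 1050 regions were higher in 6 of 6 lists. Sites of the set made up 1.43% and 1.45% of the leaf lists, 2.25% and 1.81% of the flower lists and 1.34% and 1.79% of the seed lists, yet of the 100 best-scoring sites they held 78 and 81 for leaf, 56 and 66 for flower, and 81 and 79 for seed. A site that met several regions of the set was counted once for each, so these shares and counts are upper limits.

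The higher a region ranked in all 6 scored lists, the more often it was open in root as well. Regions of leaf, flower and seed were grouped by their lowest percentile over the 6 lists. Root had a reproducible region in 1.84% of those below the 25th percentile, 3.22% between 25 and 50, 6.22% between 50 and 75, 14.9% between 75 and 90, 37.5% between 90 and 95, and 59.3% (67 of 113) between 95 and 99. At or above the 99th percentile in every list, all 46 regions had a reproducible root region (95% Wilson interval 92.3 to 100%). The interval takes the regions as separate, though some lay close together. The share rose at each step, and it did so for each root library taken alone, at 7.55% in the lowest class and 100% in the highest for root 1, and 9.94% and 100% for root 2. It was so in both parts of the chromosomes as defined below: in the class of 95 to 99 the share was 73.1% in the inner and 47.5% in the outer parts, against 3.07% and 1.27% in the lowest class. Sites of the set were also wider, and the part of width in these shares was not tested.

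**Figure D2:**
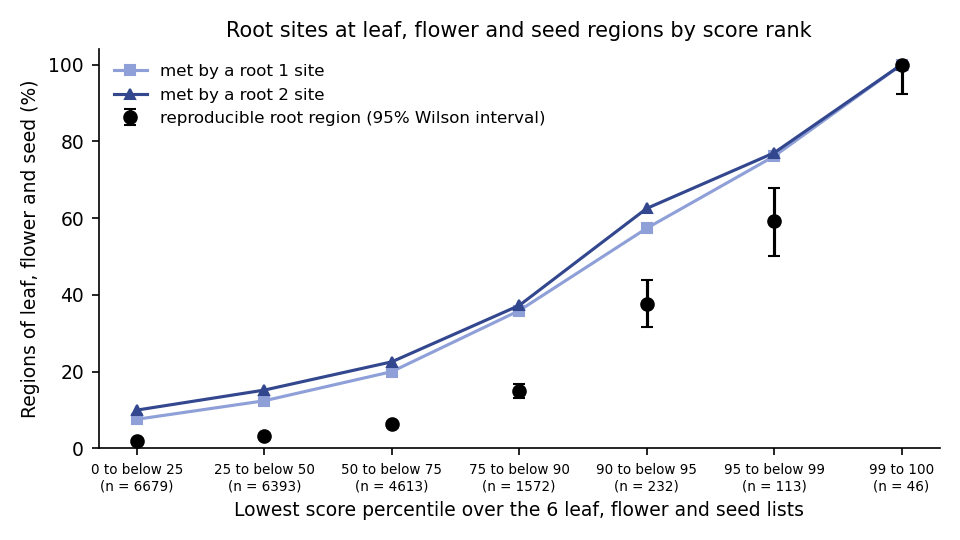
Share of the regions of leaf, flower and seed that hold a reproducible root region (points with 95% Wilson intervals) or meet a site of root 1 or root 2 (lines), by the lowest score percentile over the 6 scored lists. All 3 shares go up from class to class and reach 100% for the 46 regions in the highest class.

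Of all 19648 regions of leaf, flower and seed, taken as background, 46 (0.234%) reached the 99th percentile in all 6 lists. All 46 were in the set and made up 4.38% of the 1050, so these shares restate the result above. At the 90th percentile the background was 1.99%, against 200 of the 1050 (19.05%). The 46 lay on 16 chromosomes, with 6 on chromosome 17 and 5 each on chromosomes 6, 12 and 14, and 34 were in the inner and 12 in the outer parts. Another region of the set lay within 10 kb of 18 of the 46, so the 46 are not all independent. Their median root ratio, the mean width of the widest site in the root libraries over that in the other 6, was 0.962, whereas the other regions of the set had 0.398. Their merged widths ran from 152 to 3489 bp.

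Among the 46, chr13:7359291-7359561 had the highest score of the whole list in leaf 1 (39.9), flower 2 (16.8), seed 1 (37.4) and seed 2 (25.2). Its sites were 274 and 781 bp wide for leaf, 233 and 232 bp for flower, 248 and 253 bp for seed, and 220 and 220 bp for root. Root was close to the narrower of the other tissues, and the site of leaf 2 stood out as wide.

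A region outside the 46, chr18:10398173-10398339, headed the lists of leaf 2 (82.1) and flower 1 (127). It ranked at percentile 99.94 for leaf 1, 99.96 for seed 2 and 98.98 for flower 2, so libraries of a tissue did not place it alike. It was picked for these scores after they were seen.

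The other 4 regions that the naming rule took for their rank were chr19:20657855-20658507, chr15:29949492-29949914, chr18:16874276-16874551 and chr19:2076019-2076384. The last of these had one of the most even shapes, with 362 and 368 bp for leaf, 359 and 365 bp for flower, 378 and 363 bp for seed, and 354 and 361 bp for root. At chr18:16874276-16874551 the widths were 242 and 247 bp for leaf, 314 and 269 bp for flower, 232 and 229 bp for seed, and 224 and 228 bp for root, so flower was the widest tissue and root the narrowest by a few bp. At chr19:20657855-20658507 the sites of flower 1 (354 bp) and seed 2 (374 bp) were short, and the other 6 spanned 626 to 658 bp.

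Low-ranked regions entered the set too. The lowest median percentile over the 6 lists was 26.6, at chr15:45180416-45180571, where the percentiles were 22.5 and 9.06 for leaf, 50.1 and 4.59 for flower, and 30.7 and 48.6 for seed. Next came chr2:40144458-40144595 at 30.03, chr7:22391862-22392023 at 30.6, chr5:35279447-35279627 at 35.4 and chr4:6379813-6380068 at 38.3. At chr4:6379813-6380068 the flower libraries lay far apart, at percentiles 8.86 and 90.8, and the stretch common to all 8 sites was 9 bp. These 5 regions were narrow, with merged widths of 138 to 256 bp.

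Regions of the set were open in 4 tissues, but their rank could still be higher in a tissue. Ranks were taken among the same 19648 regions in each of the 6 scored lists. Both seed ranks lay above the other 4 in 196 of the 1050 regions (18.7%), where 13.8% of all 19648 did so. Both leaf ranks lay above the other 4 in 73 (6.95%), against a background of 8.85%. For flower the count was 115 (10.95%), against a background of 11.8%. Seed was thus above its background share, while leaf was a little below it and flower was close to it.

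Widths in leaf, flower and seed were also more even than in the background. The widest of the 6 sites was at most 1.25 times the narrowest in 99 of the 1050 regions (9.43%), against 2.57% of the 19648. With root included, all 8 widths lay within 1.25-fold in 27 regions, of which 22 were in the inner and 5 in the outer parts of 14 chromosomes. Within 1.5-fold the count was 80. No background was counted for all 8 widths, so these counts and their split are a description only.

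Root sites remained narrower than the others in most regions. Both root sites were narrower than all 6 others in 681 of the 1050 regions (64.9%), against 71.7% of the 1357 merged regions that a site of every library met. They were wider than all 6 others in 34 (3.24%), against a background of 2.58%. Since 1050 of the 1357 are the set itself, these shares cannot lie far from their background. The median root ratio over the set was 0.407.

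The root ratio depended on where a region lay. The outer parts of a chromosome are the 20% of its span at either end and the inner part is the remaining 60%. The median ratio was 0.574 in the 527 inner regions and 0.352 in the 523 outer regions. Root 1 alone gave 0.648 in the inner and 0.337 in the outer regions, and root 2 gave 0.614 and 0.333. The inner median was the higher on 17 of 20 chromosomes, the exceptions being chromosomes 5, 12 and 13. On chromosome 6 the medians were 1.01 inner and 0.335 outer, and on chromosome 12 they were 0.327 inner and 0.445 outer.

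The difference was seen in the root widths. The median root site of an inner region was 156 bp for root 1 and 151 bp for root 2, against 98 and 95 bp in outer regions. Over the whole root lists the medians were 71 and 69 bp inner against 66 and 65 bp outer, so the lists themselves had a far smaller gap. In the other 6 libraries the inner sites of the set were a little narrower, at 298 against 318 bp for leaf 1, 305 against 310 bp for leaf 2, 241 against 270 bp for flower 1, 227 against 276 bp for flower 2, 287 against 321 bp for seed 1, and 234 against 255 bp for seed 2. With sites below 100 bp removed from all lists, the medians became 1.06 inner and 0.546 outer.

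**Figure D3:**
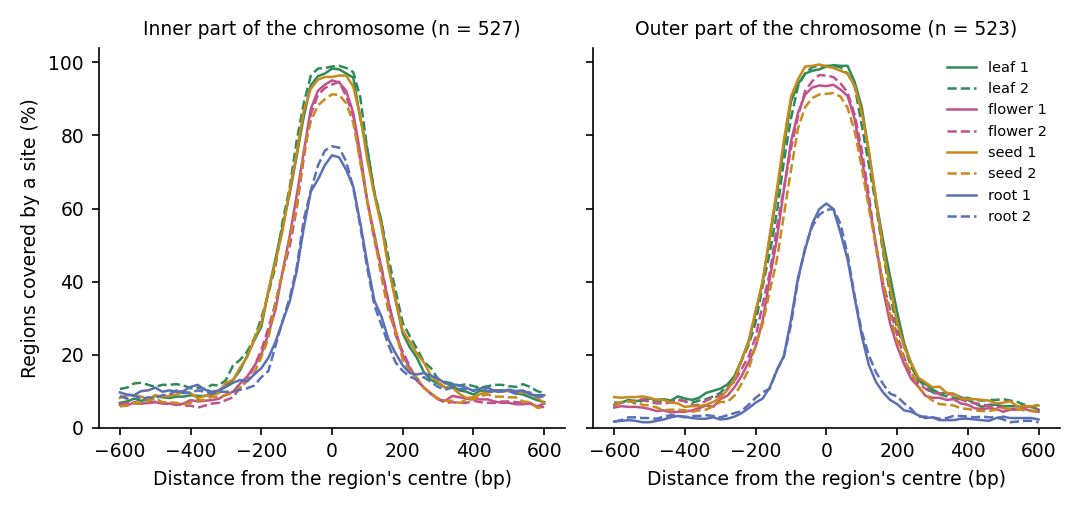
Share of the 527 inner and 523 outer regions covered by a site of each library, by distance from the centre of the merged region in bp (negative is toward lower positions). At the centre the root lines reach 74.6 and 77.0% in inner regions and 61.4 and 59.7% in outer regions, against 91.3 to 98.9% and 91.4 to 99.04% for the other 6 libraries.

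Regions fell into classes of root ratio. Below 0.5 there were 627 (235 inner, 392 outer), from 0.5 to below 0.8 there were 168, from 0.8 to below 1.25 there were 164 (138 inner, 26 outer), and at 1.25 or above there were 91 (85 inner, 6 outer). Another region of the set lay within 10 kb for 54.9% of the third class and 67.0% of the fourth, but for 9.25% and 9.52% of the first and second. The regions in which root was as wide as the other tissues were thus mostly inner and mostly close to others of their kind. Inner regions with no other region of the set within 10 kb had a median ratio of 0.414, against 0.337 in outer regions of that sort.

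The highest root ratio was 4.12 at chr15:45181358-45181921, where the root sites measured 1188 and 569 bp and the other 6 spanned 136 to 258 bp. The 1188 bp site of root 1 also covered the neighbouring chr15:45180719-45181328, whose ratio was 2.29, so these are not independent. At chr14:14950874-14951318 root had 884 and 445 bp, against 367 and 248 bp for leaf, 122 and 152 bp for flower, and 178 and 137 bp for seed. A root 1 site of 687 bp spanned chr13:7885024-7885263 and chr13:7884547-7884977, with ratios of 3.09 and 2.74. In all 5 regions both root sites were wider than the site of every other library, though at chr15:45180719-45181328 leaf 2 came close.

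At chr15:45180719-45181328 root 1 had 1188 bp and root 2 had 602 bp, with 309 and 596 bp for leaf, 359 and 254 bp for flower, and 388 and 435 bp for seed. The first region of chromosome 1, chr1:12-614, began at the start of the sequence and was picked for that after its position was seen. Its sites measured 577 and 606 bp for root, against 350 and 565 bp for leaf, 429 and 288 bp for flower, and 321 and 345 bp for seed. Root was the widest tissue at this chromosome end.

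Position along the chromosomes set the 1050 regions between the other classes. Of the set, 49.8% (95% Wilson interval 46.8 to 52.8%) lay in the outer parts, against 68.0% of the regions that lacked root, 29.3% of root regions shared with 1 or 2 tissues and 14.9% of regions of root alone. Seen per region of leaf, flower and seed, the share open in root was 8.13% (527 of 6485) in the inner and 3.97% (523 of 13163) in the outer parts. It was the higher in the inner part on 17 of 20 chromosomes, with chromosomes 3, 11 and 13 as exceptions. With the span cut into 10 equal segments, it was 3.58% in segment 1, 12.2% in segment 6 and 3.37% in segment 10.

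Root sites themselves lay mostly in the inner parts, and this moves with the result. Root 1 met 19.4% of the inner and 13.6% of the outer regions of leaf, flower and seed, and root 2 met 21.2% and 16.4%. Read from the root side, 19.4% of the 2713 inner root regions were in the set and 50.1% of the 1043 outer ones. The part of the root lists' own spread in these shares was not tested. When sites below 100 bp were removed, 33.0% of the remaining 454 regions were outer.

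**Figure D4:**
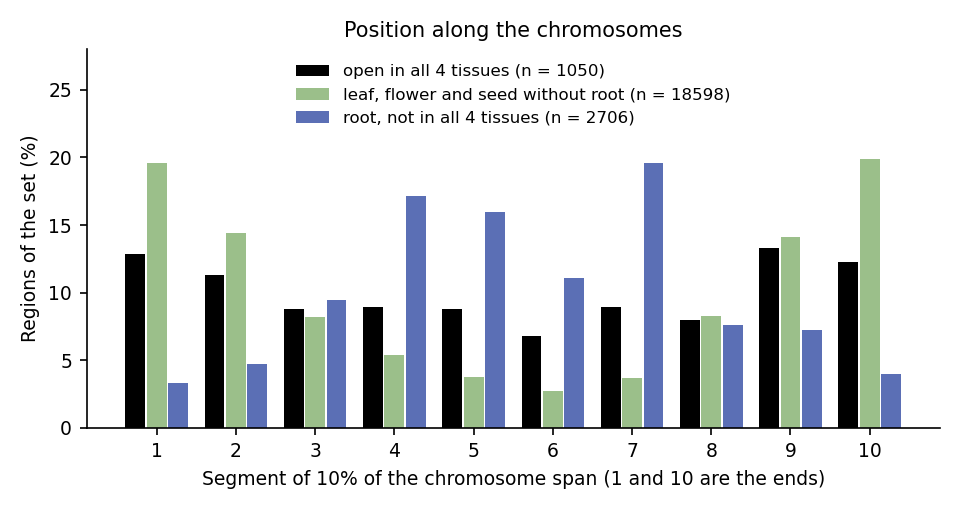
Share of each set of regions by segment of 10% of the chromosome span, summed over 20 chromosomes. The bars of the regions open in all 4 tissues run from 6.76% in segment 6 to 13.3% in segment 9, while the regions without root gather at the ends (19.6 and 19.9%) and the other root regions in the middle.

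Chromosome 6 held the most regions of the set, with 99 (1.93 per Mb, and 8.15% of its regions of leaf, flower and seed), followed by chromosome 17 with 70 (1.68 per Mb, 6.35%) and chromosome 15 with 67 (1.29 per Mb, 7.29%). Chromosome 16 held the fewest, with 27, and chromosome 11 had 28, which was 2.84% of its regions of leaf, flower and seed but 43.1% of its 65 root-holding regions. Chromosome 10 had the lowest density, at 0.698 per Mb.

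By windows of 1 Mb, the most regions of the set fell on chromosome 6 from position 32000001, with 19, where root 1 and root 2 had 180 and 159 sites. The window of chromosome 15 from 19000001 held 15, with 40 and 43 root sites. Windows of chromosome 13 from 38000001 and of chromosome 18 from 39000001 held 14 each. A dense run of root sites did not by itself give many: the window with the most, on chromosome 5 from 16000001, had 434 root sites over both libraries and 2 regions of the set, and that of chromosome 12 from 22000001 had 235 and 0.

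Regions of the set lay near each other more often in the inner parts. Another region of the set was within 10 kb for 225 of 1050 (21.4%), at 32.1% of the inner and 10.7% of the outer regions. With sites below 100 bp removed from all lists the share was 39.6%. With all sites kept, the 225 regions formed 69 groups, of which 17 held 4 or more, and 825 regions stood alone. Any merged region of the series lay within 10 kb of 945 of the 1050, against 91.4% of the regions without root, so at this distance their general surroundings were alike. Within 1 kb the shares were 48.7% and 38.2%.

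The largest group lay at chr15:19585864-19603402, with 14 regions in 17539 bp, and held the 2 widest regions of the set. Sites covered 56.3 and 58.8% of this stretch in root, against 53.9 and 56.3% for leaf, 48.5 and 52.6% for flower, and 54.1 and 54.6% for seed. Root covered as much as leaf or more, and the 14 root ratios ran from 0.864 to 1.44 with a median of 1.05.

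A group of 9 at chr9:24443102-24458690 was covered to 34.5 and 30.7% for root, against 24.3 and 29.6% for leaf, 21.2 and 18.8% for flower, and 24.2 and 21.7% for seed. Both root libraries lay above the other 6, and all 9 ratios exceeded 1, from 1.06 to 1.91. A second group of 9, at chr18:39383400-39401399, had 27.3 and 34.8% for root, against 23.7 and 28.96% for leaf, 9.88 and 16.4% for flower, and 19.6 and 23.9% for seed. There the root and leaf libraries overlapped, and flower lay below all others.

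The 3 largest groups in the outer parts had lower median root ratios than those inner groups, though ratios of single regions overlapped. At chr12:39184546-39198450, 9 regions in 13905 bp were covered to 25.6 and 27.9% for root, against 70.3 and 69.2% for leaf, 43.2 and 52.5% for flower, and 62.5 and 60.9% for seed. The tissues did not overlap, and the ratios ran from 0.150 to 0.879. At chr13:38809885-38839846, 8 regions had 13.7 and 25.5% for root, against 23.7 and 26.8% for leaf, 16.6 and 25.0% for flower, and 23.6 and 21.7% for seed, so root 1 had the lowest coverage and root 2 lay among the other libraries. The ratios there ran from 0.333 to 1.07.

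A group that tied with this one in number, chr19:43722617-43741705, fell outside the naming rule and was added after its values were seen, as was the next, chr17:23589277-23597422. The 8 regions of chromosome 19 were covered to 14.4 and 19.9% for root, against 35.2 and 34.8% for leaf, 34.7 and 41.7% for flower, and 35.4 and 31.6% for seed. Their ratios ran from 0.129 to 0.796. The 6 regions of chromosome 17, in the inner part, had 26.3 and 26.1% for root, against 25.4 and 28.98% for leaf, 31.6 and 31.0% for flower, and 30.1 and 29.4% for seed. Root was the least covered tissue in the group of chromosome 19, and it lay within the range of leaf in that of chromosome 17. An outer group went the other way and was likewise added after its values were seen: the 5 regions of chr15:45180416-45187450 were covered to 36.8 and 39.7% for root, against 31.3 and 36.0% for leaf, 19.6 and 24.0% for flower, and 26.3 and 27.5% for seed. Root lay above the other 6 libraries there, with ratios of 0.722 to 4.12 and a median of 0.980.

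**Figure D5:**
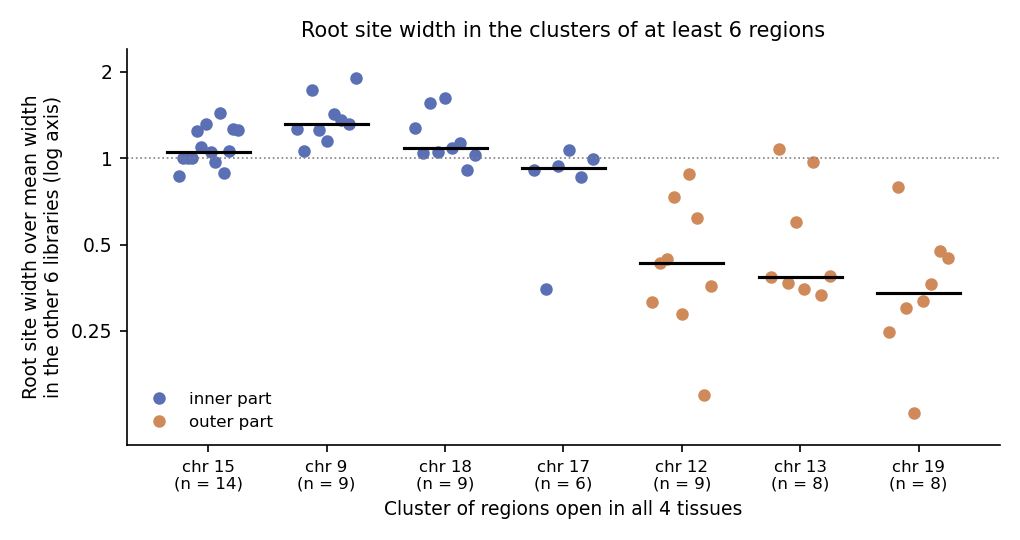
Root ratio (mean width of the widest site in the root libraries over that in the other 6, log axis) of each region in the 7 groups of at least 6 regions, by chromosome. The line gives the median. The 4 inner groups have medians of 1.05, 1.31, 1.09 and 0.922, and the 3 outer groups 0.431, 0.386 and 0.340.

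Averaged over the 4 tissues, libraries of the same tissue were closer in how wide they made the 1050 regions than under any other pairing, though single pairs did not all follow this. After each library's median was subtracted, the median absolute difference in log2 width averaged 0.26 over the 4 same-tissue pairs and 0.56 over the pairs of different tissues. This was the lowest of all 105 ways of pairing the 8 libraries (exact one-sided permutation test, p = 0.00952, the smallest it can give, adjusted p = 0.0190 over 2 tests). Pair by pair the difference was 0.15 for leaf, 0.24 for flower, 0.28 for seed and 0.38 for root, while leaf 1 and seed 1 differed by 0.18 and root differed from the other libraries by 0.77 to 0.91. The root pair was thus less alike than each of the 12 pairs of different tissues without root (0.18 to 0.37), and pairings that split root start at a disadvantage. Without root the values were 0.22 and 0.29, the lowest of 15 pairings, with an exact permutation p of 0.0667, which is the smallest possible. For score percentiles, the difference averaged 6.08 in the 3 same-tissue pairs and 8.71 in the others, again the lowest of 15 (exact one-sided permutation test, p = 0.0667, adjusted p = 0.0667), the smallest p this design allows.

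As a description over the 1050 regions, which share their libraries and depth, Spearman's rho between widths was 0.82 for the leaf libraries, 0.72 for flower, 0.62 for seed and 0.58 for root. Between root and any other library it ran from -0.10 to 0.13. The order did not follow tissue throughout: seed 1 had a higher rho with leaf 1 (0.77), leaf 2 (0.68) and flower 2 (0.67) than with seed 2, and flower 2 had a higher rho with leaf 1 (0.73) than with flower 1. A region that was wide in leaf thus tended to be wide in flower and seed, while over the whole set the widths in root showed no such relation. Inner and outer regions, whose root ratios differed, were not taken apart for these values.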

How the data were processed

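MNase hypersensitive sites of 8 soybean libraries (leaf, flower, seed and root, with 2 per tissue) were taken as the lists the authors deposited, 1 per library. The authors' positions are start and end in bp. The deposited score, which every list but those of root has, comes without a header or a definition in the sources used here. It is the authors' value and served only to rank sites within a list. The submitters' processing notes name Trimmomatic 0.36 and BWA 0.7.15-r1140. Neither the site caller nor the build is given in the sources used here. Per the labels' protocols, DNA below 100 bp was sequenced. Read depth is unknown, since the lists hold sites, so no precision from depth can be stated.

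Repeated lines of chromosome 11 in the root lists (479 and 649) were dropped, starts were taken to count from 0, and regions were built as described for the set. The span of a chromosome is its last site end over all lists, 948.9 Mb in sum. Where a library had several sites in a region, the widest and the highest-scoring were used. Groups are chains of regions with gaps of up to 10 kb. A gene table of the assembly Glycine_max_v4.0 was not used. On 4 chromosomes sites lay more than 100 kb past its last gene, and whether it matches the build of the lists is unknown. Regions named in the text are the 10 widest, the 5 with the highest lowest percentile not among those, the 5 with the lowest median percentile, the 3 narrowest, the 5 with the highest root ratio, the 5 largest groups and 3 on each side of the 20 bp limit, with ties broken by chromosome and start. The regions and lists were chosen with earlier results of these data known. Tests were exact permutations over pairings of libraries, with Benjamini-Hochberg adjustment over 2 tests, and their p-values reflect only how these libraries vary, which may be technical. Intervals are 95% Wilson intervals for shares and binomial intervals for medians. The scripts (Python 3.11.15, numpy 2.4.6, pandas 2.3.3, scipy 1.17.1) were tested on simulated data. Alternatives varied the overlap, site length, score, list length, merging, position and distance limits, and left out each library.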

Additional observations from a re-analysis of the deposited data

How the results depend on the processing

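No paired analysis was possible, since the replicate numbers name libraries only and nothing in the labels pairs libraries of different tissues. Leaving out each library gave 1058 to 3539 regions, 4.28 to 18.0% of the regions of leaf, flower and seed, a median width of 320 to 339.5 bp, 47.3 to 61.1% outer, 16.0 to 24.4% with another within 10 kb and 79.9 to 93.6% with a common stretch. The highest counts came without root 1 (3539) and root 2 (3042). With sites of at least 100 bp, 454 regions remained (2.31%), 33.0% were outer, 39.6% had another within 10 kb, 95.6% had a common stretch, and the root ratio was 1.06 inner and 0.546 outer. Lists cut to equal length, by score or for root by width, gave 416 regions (23.7%), 344 bp, 18.8% within 10 kb and 94.7% with a common stretch. Sites scoring at or above their list median gave 11.01%, 333 bp, 18.7% and 93.4%. A least overlap of 1 bp gave 86.9% with a common stretch, and 50 bp gave 4.63% of the regions and 92.0%. A required common stretch of 1 bp or 50 bp gave 93.1% and 73.2%. Outer parts of 10% and 30% held 25.1% and 66.6%, and 50 kb gave 30.1% with another nearby. Chosen after seeing the data, the root ratio was 0.414 in inner regions with no other within 10 kb, 0.734 inner and 0.379 outer with 1 site per library, and 0.370 outer for summed sites. At the 90th and 95th percentiles in place of the 99th, 51.2% and 71.1% were open in root. The likeness of widths gave 0.22 without root (p = 0.0667, exact permutation). Of the alternatives to these counts, shares, medians and tests, 67 stayed within the spread or on their side of the threshold, 48 moved by more and 1 lost its call. The lost call was that of the width test without root, whose exact permutation p cannot fall below 0.0667. The same limit holds for the score test, so its alternatives could not change side. Of those to the median width and percentile per library, 6 stayed within the spread and 14 moved by more. The spread in this case was the SD of the 2 library medians of a tissue. For widths it was 0.354 bp in leaf and 42.1 bp in seed, so very small changes counted as moved in leaf. The cause of these changes was not tested. Depth, which the lists do not give, limits all of them.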
